A study of Mus musculus with 8 samples.

Results

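The 10 circadian clock genes Per1, Per2, Per3, Cry1, Cry2, Arntl, Clock, Dbp, Tef and Ciart were followed through RNA-seq of intestinal crypt epithelium from 8-week-old mice. They were chosen by gene symbol, each matching 1 of the 29037 genes in the deposited table. The mice were 4 wild-type animals (Ctrl 1 to 4) and 4 Tdp-43 conditional knockout littermates (cKO 1 to 4), with 1 library each. Crypts, the pits of the lining in which stem cells divide, were shaken loose in EDTA, so the preparations are bulk samples in which fewer cells of a type and less RNA per cell cannot be told apart. The sources used here do not give the Cre driver, the deleted part of the gene, the gut segment or the time of day at which the mice were killed. Values are gene counts that the authors divided by 1 factor per library, called normalized counts below, and libraries held between 21517596 and 29992110 reads on genes.

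The circadian clock is a feedback loop inside nearly every cell that takes about a day to run. CLOCK and BMAL1 (the product of Arntl) bind E-box sequences and switch on the Per, Cry and Ciart genes, whose proteins then block CLOCK and BMAL1. The same pair drives Dbp, Tef and the REV-ERB genes Nr1d1 and Nr1d2. REV-ERB proteins repress Arntl and Cry1 through ROR elements, while DBP and TEF act through D-boxes, Per3 being a known D-box target. In peripheral tissues including the gut, Dbp, Nr1d1, Tef and Per3 therefore peak in the opposite part of the day from Arntl and Npas2, with Cry1 rising late and Clock nearly flat.

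Promoter windows of 4 of these genes are shown because they hold the sequences named above, and Ciart because it was the clock gene that differed between the groups. Each runs from 250 bases before to 50 bases after a start site, from RefSeq on GRCm38.p6, read on the gene's own strand. Capitals mark the E-box CACGTG (Ciart and Tef), the D-box TTATGTAA or TTACGTAA (Per3) and the loosely written ROR element TNGGTCA (Arntl and Per3), searched on both strands. The windows are chr3:95882179-95882478 (minus strand) for Ciart, chr15:81802423-81802722 (plus) for Tef, chr4:151044616-151044915 (minus) for Per3 and chr7:113207261-113207560 (plus) for Arntl.
Ciart: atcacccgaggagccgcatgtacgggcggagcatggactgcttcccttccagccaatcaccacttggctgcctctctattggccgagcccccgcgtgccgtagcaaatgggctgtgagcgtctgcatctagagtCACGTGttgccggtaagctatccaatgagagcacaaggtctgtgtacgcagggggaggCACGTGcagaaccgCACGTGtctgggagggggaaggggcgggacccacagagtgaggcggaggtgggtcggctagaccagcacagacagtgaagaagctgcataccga
Tef: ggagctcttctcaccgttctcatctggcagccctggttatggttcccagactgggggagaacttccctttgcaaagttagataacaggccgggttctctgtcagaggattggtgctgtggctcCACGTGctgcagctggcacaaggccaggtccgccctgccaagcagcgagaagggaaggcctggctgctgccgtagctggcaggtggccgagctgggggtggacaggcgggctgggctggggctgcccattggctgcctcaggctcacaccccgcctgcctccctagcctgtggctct
Per3: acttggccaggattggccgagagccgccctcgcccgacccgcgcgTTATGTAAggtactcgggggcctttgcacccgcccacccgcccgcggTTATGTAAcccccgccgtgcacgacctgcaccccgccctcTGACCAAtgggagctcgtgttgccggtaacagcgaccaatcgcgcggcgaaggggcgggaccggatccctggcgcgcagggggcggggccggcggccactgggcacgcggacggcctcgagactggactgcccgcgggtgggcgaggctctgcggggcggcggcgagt
Arntl: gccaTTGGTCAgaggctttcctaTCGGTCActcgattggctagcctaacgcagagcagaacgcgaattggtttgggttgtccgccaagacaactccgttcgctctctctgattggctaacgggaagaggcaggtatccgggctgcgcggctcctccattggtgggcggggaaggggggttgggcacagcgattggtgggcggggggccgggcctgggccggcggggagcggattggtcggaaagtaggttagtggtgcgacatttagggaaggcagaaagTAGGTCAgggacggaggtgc

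The Ciart window held 3 E-boxes, starting 116, 58 and 44 bases before the start site. An E-box stood in 7.15% of the 32851 windows in the table, and 3 or more stood in 0.0883%. Per3 held 2 D-boxes, against 1.06% of windows with at least 1 and 0.0244% with 2 or more. The Arntl window shown held 3 matches to the ROR letters. At least 1 stood in 11% of windows, 2 or more in 0.755% and 3 or more in 0.0609%. Another Arntl window, which overlaps it, held 2. Among the 9 members with a window in the table, 4 had an E-box in at least 1 of their windows (Ciart, Tef, Per1 and Cry1), 4 had the ROR letters (Arntl, Per3, Cry2 and Tef) and 1, Per3, had a D-box. The Dbp window held none of the motifs searched, which says only that these letters are not in those 300 bases. A match to these letters is a description of the sequence and not a binding site.

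Of the 10 clock genes, 1 was higher and 0 were lower in the libraries labelled cKO, while of the 16536 tested genes 5.65% were higher and 6.07% lower, 11.7% in all. Scaling by library totals turned the 935 higher and 1004 lower genes into 1327 and 740, and left the clock gene counts as they were. The gene was Ciart, also called Chrono, a repressor of CLOCK and BMAL1. The groups overlapped for the other 9. The median log2 fold change of the 10 was 0.01, against -0.01 over all tested genes. Libraries of the same genotype differed by up to 18.2-fold, for Dbp. The plot of each gene by library shows both patterns.

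**Figure D1:**
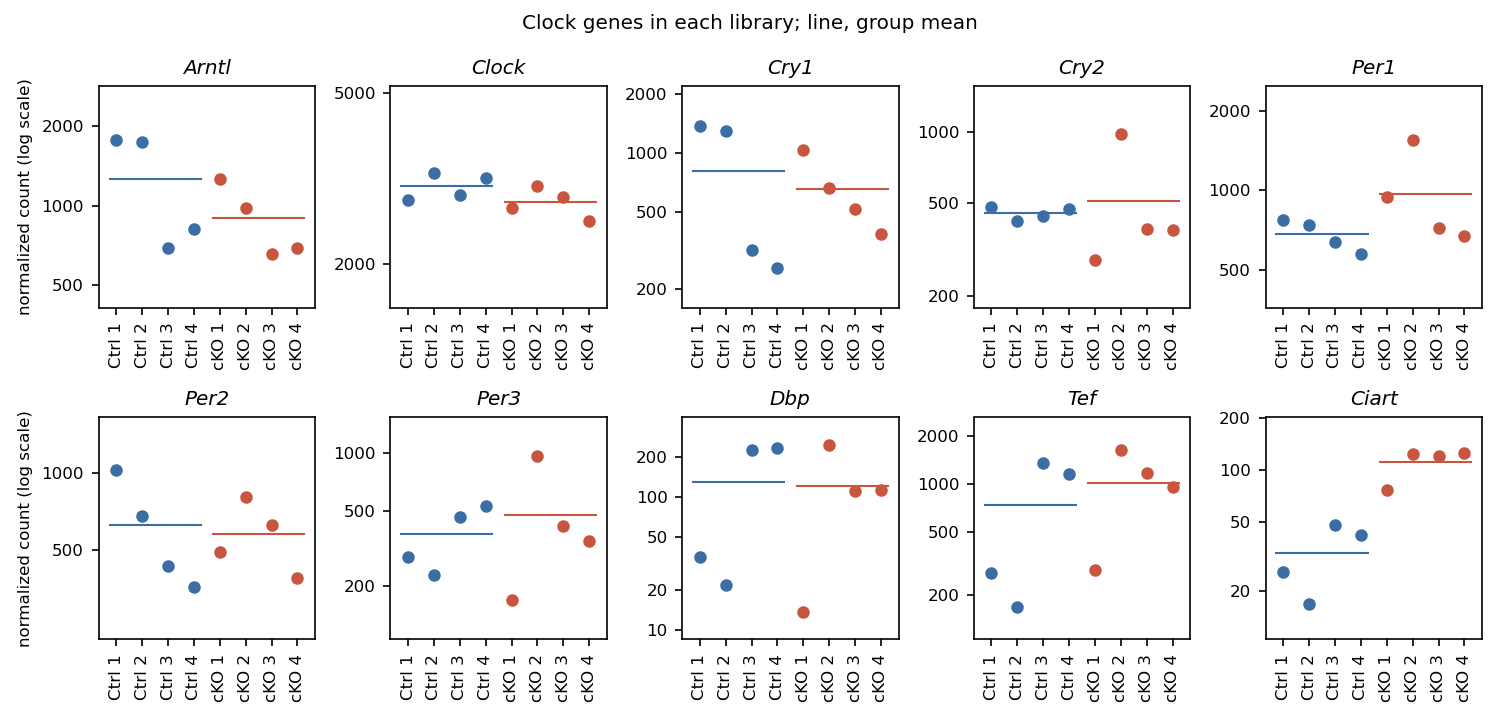
Normalized count of each clock gene (log scale) in the 4 Ctrl libraries (blue) and the 4 libraries labelled cKO (red), with a line at each group's mean. Ciart is the gene whose groups do not overlap, while Dbp and Tef are low and Cry1 and Arntl high in Ctrl 1, Ctrl 2 and cKO 1.

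Ciart (ENSMUSG00000038550, chromosome 3, 95878503 to 95882251, minus strand, coordinates that equal those of GENCODE M21 on GRCm38) had 25.6, 16.8, 48.3 and 41.8 normalized counts in Ctrl 1 to 4. It had 76.7, 124, 120.5 and 126 in cKO 1 to 4. Every library labelled cKO was thus above every Ctrl library, as for 9.54% of tested genes; 10.3% lay wholly below, 19.9% in all. The means were 33.1 ± 14.5 in Ctrl against 112 ± 23.4 in libraries labelled cKO (SD, n = 4 each), a ratio of 3.37. The log2 fold change, cKO over Ctrl on the log2(value + 1) scale, was 1.81 ± 0.34 (SE; limma adjusted p = 0.0138, over all tested genes). Ciart is a low gene, resting on 16 to 51 recovered reads in Ctrl libraries and 84 to 128 in the libraries labelled cKO. The call held in each of 23 other settings, with log2 fold changes from 1.53 to 2.02. The authors' deposited table gave a log2 fold change of 1.74 and an adjusted p of 1.11e-05.

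The transcriptional activators Arntl and Clock behaved unlike each other. Arntl (chromosome 7, 113207465 to 113314126, plus strand) had 1775, 1749, 694 and 815 normalized counts in Ctrl 1 to 4 and 1258, 979.9, 659 and 694 in cKO 1 to 4. It was high in Ctrl 1, Ctrl 2 and, less so, cKO 1, and the groups overlapped (log2 fold change -0.41 ± 0.36, adjusted p = 0.501). Clock (chromosome 5, 76209868 to 76304792, minus strand) stayed between 2522 and 3254 in all 8 libraries, a range of 1.29-fold. Its log2 fold change was -0.12 ± 0.09 (adjusted p = 0.387). Arntl therefore varied 2.56-fold among Ctrl libraries in which Clock varied 1.15-fold.

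The D-box activators Dbp and Tef ran the other way from Arntl. Dbp (chromosome 7, 45705088 to 45710203, plus strand) had 35.3, 22.1, 225 and 237 normalized counts in Ctrl 1 to 4 and 13.7, 249.6, 112 and 113 in cKO 1 to 4. The 3 libraries with the highest Arntl, Ctrl 1, Ctrl 2 and cKO 1, had the 3 lowest Dbp values, at most 35.3 against at least 112 in the others. Tef (chromosome 15, 81802421 to 81826863, plus strand) had 276, 168, 1363 and 1154 in Ctrl 1 to 4 and 287, 1646, 1181 and 956 in cKO 1 to 4. The same 3 libraries were low, at 168 to 287 against 956 to 1646, so that each group held low and high libraries. Log2 fold changes were 0.02 ± 1.07 for Dbp (adjusted p = 0.992) and 0.71 ± 0.82 for Tef (adjusted p = 0.621). With an SE of 1.07 on the log2 scale, a doubling of Dbp in either direction was not detectable. Exons of Dbp share 539 bases, 18% of their length, with Sphk2 on the opposite strand, and no source says whether counting used strand. Sphk2 itself ranged from 1440 to 3074 normalized counts, and its part in the Dbp values was not tested.

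**Figure D2:**
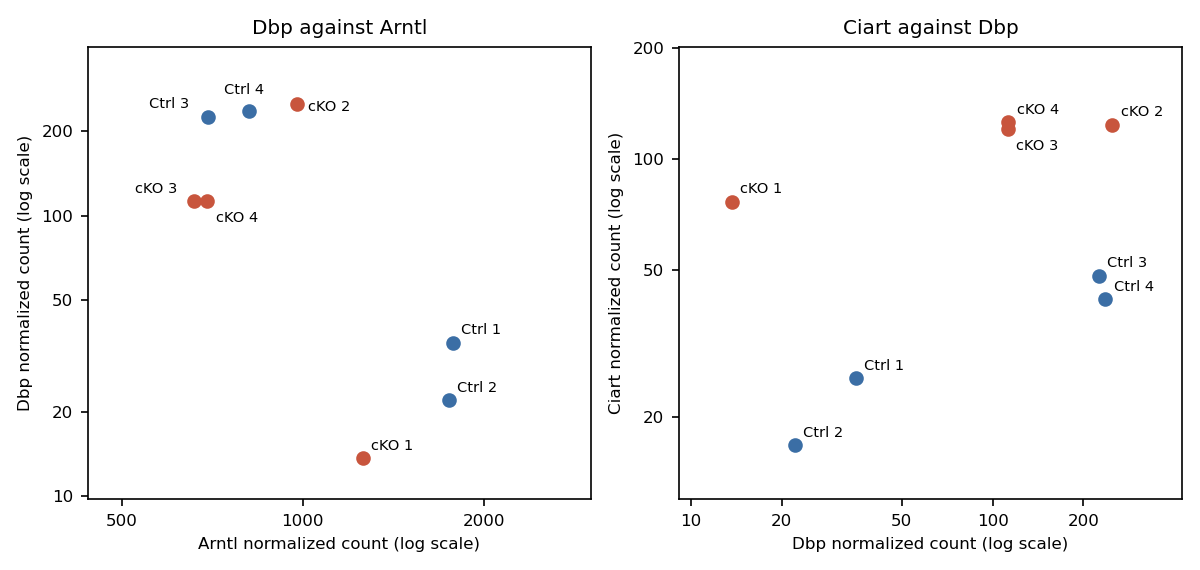
Left, Dbp against Arntl, and right, Ciart against Dbp, as normalized counts on log axes, with 1 point per library (blue Ctrl, red cKO). Ctrl 1, Ctrl 2 and cKO 1 sit at high Arntl and low Dbp, and the 4 libraries labelled cKO have more Ciart than any Ctrl library at low and at high Dbp.

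Ciart followed Dbp inside Ctrl but not across the groups. Ctrl 1 and 2, low in Dbp, had 25.6 and 16.8 normalized counts of Ciart, and Ctrl 3 and 4, high in Dbp, had 48.3 and 41.8. Within the libraries labelled cKO the lowest Ciart, 76.7, was again in the library lowest in Dbp, cKO 1. That value still exceeded the 48.3 of Ctrl 3, whose Dbp was 225 against 13.7. In an alternative chosen after seeing the data, the per-library level of Dbp and Tef minus that of Arntl was added as a model term. With it, the log2 fold change of Ciart was 1.61 ± 0.19 (limma adjusted p = 0.00207). That term stands for those genes alone and not for a time of day. Whether sampling time had a part in the Ciart difference was not tested.

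The period genes encode the proteins that carry the cryptochromes into the nucleus. Per3 (chromosome 4, 151003652 to 151044665, minus strand) resembled Dbp, with 283, 229, 463 and 529 normalized counts in Ctrl 1 to 4 and 168, 965, 417 and 344 in cKO 1 to 4. Its groups overlapped (log2 fold change 0.14 ± 0.51, adjusted p = 0.884). Per1 (chromosome 11, 69095217 to 69109960, plus strand), which glucocorticoids and other acute signals also induce, had 775, 737, 638 and 575 in Ctrl 1 to 4 and 941, 1556, 719 and 669 in cKO 1 to 4. It was highest in cKO 2, with overlapping groups (0.44 ± 0.25, adjusted p = 0.285), and without cKO 2 the log2 fold change was 0.18. Per2 (chromosome 1, 91415982 to 91459324, minus strand) had 1033, 676, 430.1 and 357 in Ctrl 1 to 4 and 492, 802, 625 and 388 in cKO 1 to 4. Ctrl 1 was highest, and the log2 fold change was -0.04 ± 0.35 (adjusted p = 0.951).

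Of the cryptochromes, the core repressors of the loop, Cry1 varied with Arntl while Cry2 did not. Cry1 (chromosome 10, 85131700 to 85185064, minus strand) had 1377, 1299, 318 and 258 normalized counts in Ctrl 1 to 4 and 1042, 662, 516 and 385 in cKO 1 to 4. Ctrl 1, Ctrl 2 and cKO 1 were again the highest 3 (log2 fold change -0.03 ± 0.62, adjusted p = 0.982). Cry2 (chromosome 2, 92403646 to 92434043, minus strand) had 481, 418, 439.6 and 471 in Ctrl 1 to 4 and 286, 984, 389 and 383 in cKO 1 to 4. Its Ctrl libraries lay within 1.15-fold of each other, while those labelled cKO spread over 3.44-fold, with cKO 2 at the top and cKO 1 at the bottom (0.00 ± 0.33, adjusted p = 0.997). Without cKO 2 the log2 fold change of Cry2 was -0.37, and its adjusted p 0.0980.

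A contrast of chosen clock genes put the alternation in 1 value per library. The mean centred log2 level of Dbp, Tef, Per3 and Ciart minus that of Arntl, Clock and Npas2 was -1.43, -2.03, 0.94 and 0.61 in Ctrl 1 to 4. In cKO 1 to 4 it was -1.13, 1.16, 1.08 and 0.80. The signs were the same without Ciart. Not every gene followed this order, since Clock was flat, and Npas2, Per1 and Cry2 were highest in cKO 2, with Npas2 below its mean in cKO 1. Both groups thus held libraries at either end, with 2 of 4 Ctrl libraries and 1 of 4 labelled cKO below 0. Over all genes, Ctrl 1 and 2 were also closest to each other, as were Ctrl 3 and 4 (chi-square per degree of freedom 26.1 and 30.0, against 58.3 to 67.4 between the pairs). Among the libraries labelled cKO, cKO 3 and 4, both positive in the contrast, were closest, at 45.5. The other distances did not follow the contrast in this way. Library cKO 1 was at 52.5 from cKO 3 and 77.8 from cKO 4. Library cKO 2 was at 75.9 to 94.3 from the other 3. Whether sampling time differed between mice was not tested, since no time is given.

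**Figure D3:**
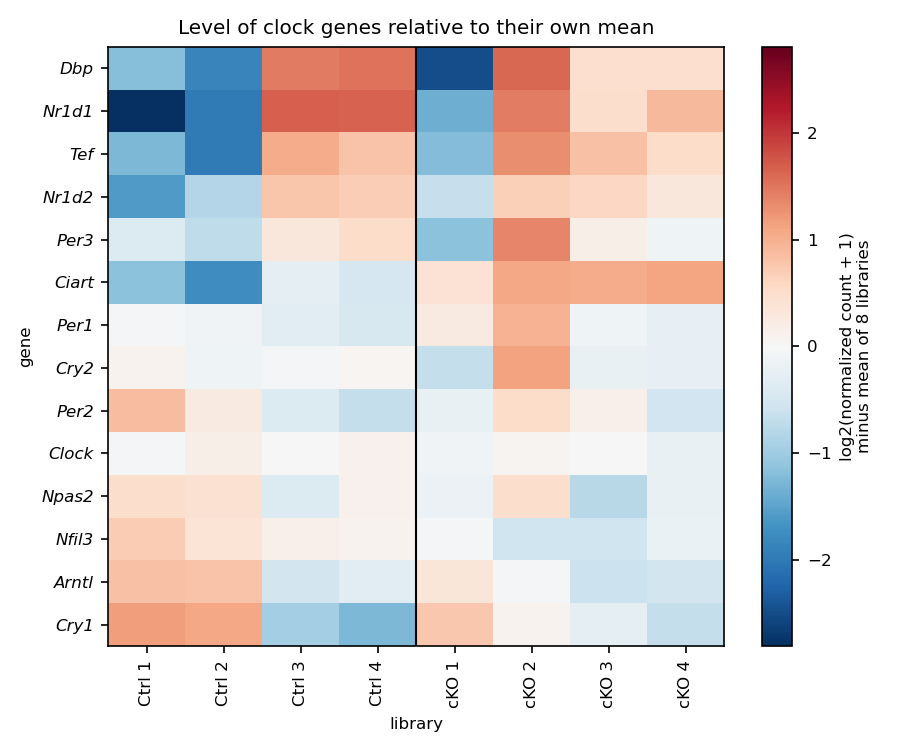
Log2(normalized count + 1) minus the gene's mean over the 8 libraries (colour scale, red above and blue below the mean) for the 10 clock genes and 4 other clock transcription factors, with a line between Ctrl and cKO. Dbp, Nr1d1, Tef and Nr1d2 are blue where Cry1 and Arntl are red, in Ctrl 1, Ctrl 2 and cKO 1, while Ciart is below its mean in the 4 Ctrl libraries and above it in the 4 labelled cKO.

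Clock genes varied among mice of 1 group to very different degrees. The within-group SD of log2(value + 1) had a median of 0.59 over the 10 clock genes and of 0.25 over all tested genes. Dbp, at 1.75, was at percentile 99.2 of tested genes, Tef (1.31) at 97.8, Cry1 (1.01) at 95.6 and Per3 (0.84) at 93.0. These were the 4 members above the 90th percentile. Clock, at 0.11, was at percentile 11.6, and Ciart, at 0.53, at 80.2. The SE of a fold change follows this spread, so the comparison of genotypes was least precise for Dbp and Tef.

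**Figure D4:**
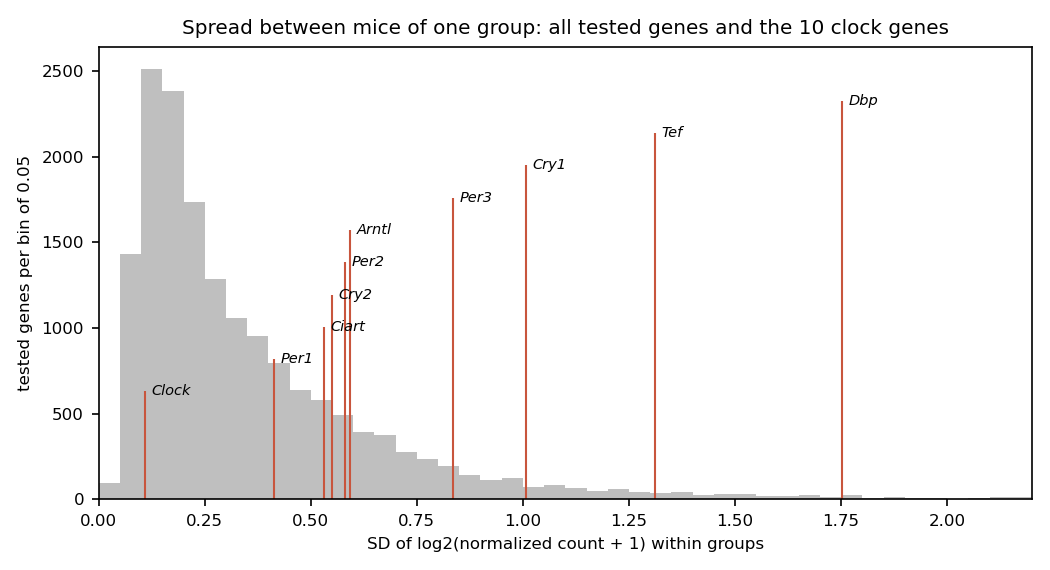
Number of tested genes (grey bars) by the SD of log2(normalized count + 1) within groups, in bins of 0.05, with red lines at the 10 clock genes whose heights only separate the labels. Clock lies at 0.11 and Dbp at 1.75, and of the 81 genes above 2.0 only part fall within the axis.

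Per kilobase of gene length, Cry1, Clock and Arntl had the highest mean levels in Ctrl, at 243 ± 182, 221 ± 15.5 and 167 ± 77.6 normalized counts per kilobase (SD, n = 4). Per1 (121 ± 16.3), Per2 (107 ± 52.1), Tef (94.1 ± 77.0), Cry2 (71.5 ± 4.54), Dbp (43.4 ± 39.1) and Per3 (39.2 ± 14.9) followed, and Ciart was lowest at 14.6 ± 6.41. Each gene's Ctrl libraries overlapped those of the next gene in this order, except that the lowest Per3 library, at 23.8, was above the highest Ciart library, at 21.4. In the libraries labelled cKO, Ciart had 49.4 ± 10.4 per kilobase, beside 49.3 ± 35.8 for Per3 and 40.8 ± 32.4 for Dbp.

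Other transcription factors of the loop were read from a list of 10, of which 7 passed the filter of a mean of 10. Of these, 0 were higher and 1 was lower in the libraries labelled cKO, beside 5.65% and 6.07% of all tested genes. Their median log2 fold change was 0.47 against -0.01 over all tested genes. That median is the value of 1 gene, Nr1d2, with an SE of 0.57 and a range of 0.014 to 0.80 when 1 library was left out. The lower gene was Nfil3, the repressor that competes with DBP for D-boxes. It had 794, 633, 536 and 521 normalized counts in Ctrl 1 to 4 and 472, 329, 329 and 423 in cKO 1 to 4, with no overlap (log2 fold change -0.67 ± 0.17, limma adjusted p = 0.0381). The call was lost when Ctrl 1, 2, 3 or 4 or cKO 2, 3 or 4 was left out (adjusted p up to 0.0880), and it held in 14 of 23 other settings.

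**Figure D5:**
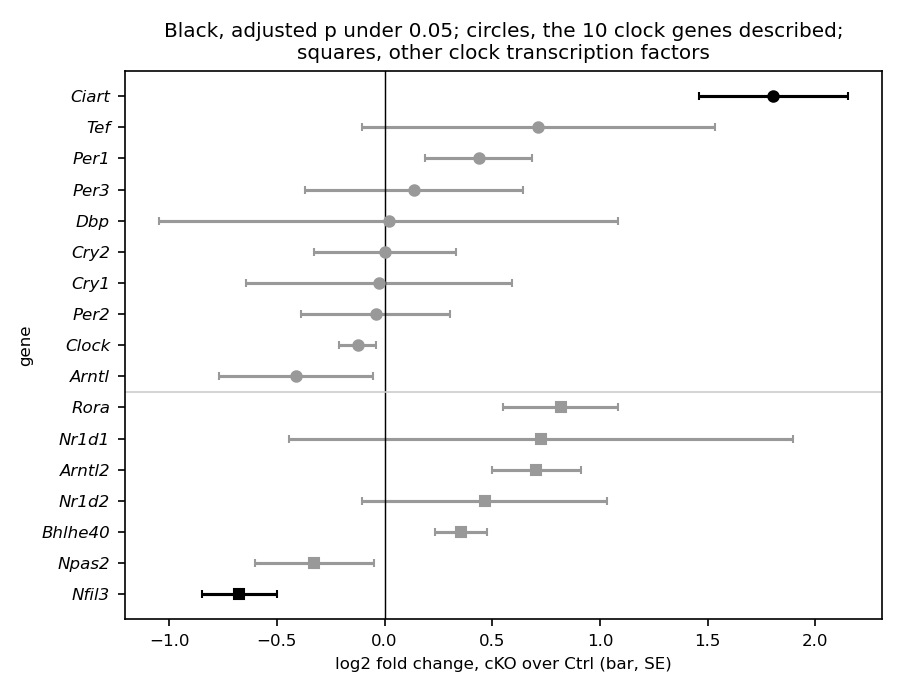
Log2 fold change, cKO over Ctrl, with its SE for the 10 clock genes (circles) and the 7 tested other clock transcription factors (squares), black where the adjusted p was under 0.05. Ciart (1.81) and Nfil3 (-0.67) are black, and the bars of Dbp and Nr1d1 are the widest.

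The REV-ERB repressors showed the same alternation as Dbp. Nr1d1 had 97.3, 171, 2169.5 and 2121 normalized counts in Ctrl 1 to 4 and 263, 1822, 949.8 and 1276 in cKO 1 to 4, and Nr1d2 ranged from 327 to 1694. Nr1d1 was lowest in Ctrl 1, Ctrl 2 and cKO 1, a 22.3-fold range inside Ctrl (log2 fold change 0.73 ± 1.17, adjusted p = 0.733). The mean count was 1139.6 in Ctrl against 1078 in libraries labelled cKO, so mean and log2 fold change differ in sign. Its exons share 263 bases with Thra on the opposite strand. Npas2, a relative of Clock, had a log2 fold change of -0.33 ± 0.28 (adjusted p = 0.490). Nr1d2 had 0.47 ± 0.57 (adjusted p = 0.645).

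Of the 7, Nfil3, Rora and Arntl2 had groups that did not overlap, as had 19.9% of all tested genes. Rora and Arntl2 did not pass the threshold. Rora, a low gene, had 14.6 to 19.6 normalized counts in Ctrl and 23.7 to 46.2 in the libraries labelled cKO (log2 fold change 0.82 ± 0.27, adjusted p = 0.0807). Arntl2, a relative of Arntl, had 88.1 to 133 and 144 to 227 (0.71 ± 0.20, adjusted p = 0.0554). The E-box repressor Bhlhe40 had 3126 to 3687 and 3681 to 5199 (0.36 ± 0.12, adjusted p = 0.0879), and its groups overlapped. Arntl2 passed in 4 of 23 other settings, Bhlhe40 in 2 of 23 and Rora in 1 of 22. Rorb, Bhlhe41 and Hlf were at or below 10.7, 8.40 and 6.02 in every library and were not tested.

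Of enzymes that modify or degrade clock proteins, 1 was higher and 1 lower of 11 tested. Over all tested genes, 5.65% were higher and 6.07% lower. Csnk1e, the kinase that marks PER proteins for degradation, had 423 to 537 normalized counts in Ctrl and 585 to 779.6 in the libraries labelled cKO (log2 fold change 0.48 ± 0.13, limma adjusted p = 0.0428). Usp2, a deubiquitinase and clock output, had 485 to 596 and 194 to 466 (-0.87 ± 0.23, adjusted p = 0.0415). Both calls were lost without any 1 of 7 of the 8 libraries, the exceptions being cKO 3 for Csnk1e and cKO 2 for Usp2 (adjusted p up to 0.116 and 0.0996). They held in 14 and 12 of 23 other settings. Of clock output genes, which include Usp2, and beside those same shares, 0 were higher and 3 lower of 11 tested. They included the fatty acid receptor Ppara (452 ± 31.8 in Ctrl against 162 ± 56.4 in libraries labelled cKO, -1.54 ± 0.23, adjusted p = 0.00684) and the glucose transporter Slc5a1 (-0.44 ± 0.12, adjusted p = 0.0475). Slc5a1 lost the call without Ctrl 1, 2, 3 or 4 or cKO 1 or 4 (adjusted p up to 0.115) and held in 10 of 23 other settings, against 23 of 23 for Ppara.

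Acute signals that also reach Per1 were read from lists of glucocorticoid-responsive and immediate early genes. Over all tested genes, 5.65% were higher and 6.07% lower. Of the glucocorticoid list, 0 were higher and 2 lower of 10 tested, the receptor Nr3c1 (log2 fold change -0.74 ± 0.15, limma adjusted p = 0.0188) and its target Tsc22d3 (-0.69 ± 0.19, adjusted p = 0.0454). Nr3c1 lost the call without Ctrl 1 or 2 (adjusted p up to 0.0536) and Tsc22d3 without Ctrl 1, 2 or 3 or cKO 1, 3 or 4 (adjusted p up to 0.114), holding in 21 and 13 of 23 other settings. Tsc22d3 was higher in cKO 2, at 1028 normalized counts, than in the other libraries labelled cKO, at 624 to 649, and cKO 2 was also the library highest in Per1. Ctrl 1, 2 and 3 had more Tsc22d3 than cKO 2, at 1360, 1332 and 1084, with less Per1, at 775, 737 and 638. Ctrl 4 had less of each, at 922 and 575. The glucocorticoid list summed to 35506 in cKO 2 and to between 14123 and 19461 in the other 7 libraries. The immediate early list was also highest in cKO 2, at 76136 against 35219 to 62877 in the other 7. So was the list of clock output genes, at 63691 against 35259.5 to 40188. In that list Slc9a3 had 20157 in cKO 2 against 6363 to 9573 elsewhere, and Abcb1a 16154 against 7560 to 9616. Por and Cdkn1a were also highest in cKO 2, while Wee1, Nampt, Usp2, Slc5a1, Slc2a5, Slc15a1 and Ppara were not. The part of any of these lists in the Per1 value was not tested. Of immediate early genes, 2 were higher and 0 lower of 11 tested, Fosl1 (2.46 ± 0.32, adjusted p = 0.00398) and Ier3 (1.37 ± 0.22, adjusted p = 0.00837).

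The genes most like Dbp and Arntl in their variation among mice of 1 group were sought among 13048 tested protein-coding genes, by Pearson's r over the 8 libraries after centring each gene within its group. Tcf23, Wipi1, Wdr13, Tmem198b and Neurl1b were closest to Dbp, with r from 0.990 to 0.997. Gxylt1, Rnf20, Snrnp48, Npat and Thoc2 were closest to Arntl, with r from 0.981 to 0.993. These r values are a description without a test, and most of each rests on the contrast of Ctrl 1 and 2 with Ctrl 3 and 4 and of cKO 1 with the others. The spread of these 10 genes was small beside that of Dbp, with within-group SDs of 0.12 to 0.35. Wipi1, an autophagy protein, was also lower in the libraries labelled cKO (663 to 954 normalized counts in Ctrl and 387 to 608 in those labelled cKO, log2 fold change -0.67 ± 0.17, limma adjusted p = 0.0340). That call was lost without Ctrl 1, 3 or 4 or cKO 1, 3 or 4 (adjusted p up to 0.0978).

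Facts of the whole set of libraries stand beside the Ciart result. Tardbp, the gene of TDP-43, had 4900.2 to 6342 normalized counts in Ctrl and 10794 to 13269 in the libraries labelled cKO, the reverse of a loss of the transcript, and the value covers the whole gene and so checks nothing about the deletion. Of epithelial markers, 2 were higher (Krt18 and Krt20, in 14 and 17 of 23 other settings, and lost without 7 and 5 of the 8 libraries in turn) and 0 lower of 9 tested, with summed levels of 408087 to 501996 in Ctrl and 399589 to 475537 in the libraries labelled cKO. Of neutrophil markers, 6 were higher and 0 lower of 8 tested, with sums of 654 to 1527 and 5518 to 17929.6. Ly6g made up most of these sums, at 17824 in cKO 2, and the other 8 listed genes summed to 8.52 to 151 in Ctrl and 105 to 1707 in the libraries labelled cKO, highest in cKO 4. The call of Ly6g held in 23 of 23 other settings, Retnlg in 17 of 22, Il1r2 in 16 of 22 and Csf3r in 14 of 23. Those of Retnlg, Il1r2 and Csf3r were lost without 5, 6 and 6 of the 8 libraries in turn. S100a8 and S100a9 were near the threshold (limma adjusted p = 0.0401 and 0.0468). Of crypt stem cell markers 1 of 5 was higher, Olfm4, a call held in 10 of 22 other settings and lost without 7 of the 8 libraries in turn. The other 4 had negative log2 fold changes without passing the test, from -1.13 (Lgr5) and -1.05 (Smoc2) to -0.10 (Ascl2). Of macrophage markers 1 of 9 was higher (Mrc1, in 15 of 23 other settings) and of enteric neuron and glia markers 1 of 3 (Ret, in 23 of 23), with 0 lower in these lists. Sums were 2609 to 3361 and 1269.5 to 2626 for stem cell, 2492 to 2916 and 1752 to 3896 for macrophage, and 84.0 to 115 and 239 to 409.5 for neuron and glia markers. Ret carried most of the last sums in the libraries labelled cKO. The untested neuron marker Elavl4 had 10.4 to 16.8 in Ctrl and 0.913 to 8.03 in the libraries labelled cKO. Cd14 made up most of the macrophage sums, at 1982 to 2530 in Ctrl and 1249 to 2923 in the libraries labelled cKO. Log2 fold changes in the macrophage list ran from -0.31 (Cd14) to 1.78 (Csf1r), with a median of 0.93 against -0.01 over all tested genes. Of T cell, B cell, fibroblast and endothelial markers, 0 were called. The shares over all tested genes were 5.65% higher and 6.07% lower. No listed marker found in the table was at 0 in all 8 libraries. The part of these cells in the Ciart difference was not tested.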

How the data were processed

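Crypt RNA of 8 mice was sequenced. Tools named, with no role, per the submitters' processing notes are CASAVA, featureCounts 1.5.0-p3 and HISAT2 2.0.5, and no source used here names the build. The deposited signal values are normalized gene counts: the authors scaled each library by a single factor, and on division by the value of 1 read 100% of values came out whole in every library (tolerance 1e-04 reads). The authors' deposited table also holds log2 fold changes, p-values and adjusted p-values.

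Genes with a mean of at least 10 were tested with limma 3.58.1 (eBayes, trend, robust, two-sided) on log2(value + 1), cKO against Ctrl, with Benjamini-Hochberg adjustment over 16536 genes and a threshold of 0.05. The added 1 pulls fold changes of low genes toward 0. Limma-voom, edgeR 4.0.16 and DESeq2 1.42.0 on recovered reads were alternatives among 23 other settings, 1 of them added after seeing the data. The test was tried on simulated data. It called 6.06% of 66 genes changed 1.5-fold, 53.1% of 64 changed 2-fold and 75.8% of 62 changed 4-fold. It also called 2 unchanged genes, with 16325 genes tested.

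Named were the 10 members, the 10 other clock factors, up to 4 called genes per list and the 5 genes nearest to Dbp and to Arntl. A further clock factor, in none of the lists, is not reported here. Members and lists were chosen with earlier results of these data known. Nothing says how the mice were raised or killed beyond their being littermates, so p-values measure the spread between these samples. Figures were drawn with matplotlib 3.10.9 (Python 3.11.15), and fits were run in R 4.3.3.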

Additional observations from a re-analysis of the deposited data

Results flagged for a closer look

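Of 94 groups of 4 libraries checked for the named genes, 8 had a library far from the other 3. The cut used flags about 1 in 20 groups by chance when values are normally distributed. Counts need not be, least of all low ones, so the 8 cannot be read against that share. Among clock genes, Ciart in cKO 1 had 76.7 normalized counts against 120.5 in the nearest library labelled cKO, and Cry2 in cKO 2 had 984 against 389. Tsc22d3 in cKO 2 had 1028 against 649, and the low gene Rorb in cKO 4 had 9.81 against 3.65. Among markers of other cells, Csf3r in Ctrl 4 had 34.7 against 6.63 and Retnlg in Ctrl 4 had 5.34 where the other Ctrl libraries were at 0. Retnlg in cKO 4 had 44.2 against 13.7, and Olfm4 in cKO 1 had 43.8 against 19.1.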

How the results depend on the processing

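The counts of clock genes called higher (1, Ciart) and lower (0) were the same in all 23 other settings. Under 6 other pseudocounts and scalings, the contrast of each library kept its sign and moved by less than its group's SD. The scalings could hardly have moved it, since 1 factor per library shifts both sides of the contrast alike and nearly cancels. The count of clock genes above the 90th percentile of spread moved by no more than 1.5 times in these 6. All genes called higher numbered 935, but 1509 with DESeq2, and 1543 with Dbp, Tef and Arntl as a term, where those lower numbered 1722 against 1004. Leaving out 1 library gave 376 to 1350 higher and 390 to 1382 lower, with moves of over 1.5 times without each Ctrl library, cKO 1 or cKO 4. Of the other clock factors 1 was called, but 2 when scaled by library totals, by the upper quartile or with Dbp, Tef and Arntl as a term, 3 with DESeq2, and 0 to 1 when a library was left out. Log2 fold changes of genes with a wide error, or near 0, turned sign. Cry1 was at 0.055 with library totals, 0.061 with limma-voom and 0.32 with the added term. Per2 was at 0.041, 0.0074 and 0.060 in the same settings. Dbp was at -0.086 with edgeR, -0.084 with DESeq2 and -0.089 with limma-voom, and Nr1d1 at -0.073 with edgeR and -0.075 with DESeq2. With the added term Cry2 was at -0.081, Per3 at -0.12 and Tcf23 at -0.011. Leaving out 1 library gave -0.45 to 0.36 for Cry1, -0.37 to 0.22 for Cry2, -0.59 to 0.85 for Dbp, -0.27 to 0.24 for Per2, -0.30 to 0.54 for Per3 and -0.082 to 1.41 for Nr1d1. It gave -0.036 to 0.071 for Gxylt1, -0.019 to 0.069 for Rnf20, -0.055 to 0.10 for Snrnp48, -0.0068 to 0.29 for Tcf23 and -0.035 to 0.067 for Thoc2. The cause was not tested. With the replicate block, 821 genes were higher and 924 lower, and Ciart kept its call (adjusted p = 0.0218, limma). Libraries with the same number correlated at 0.32, -0.11, 0.12 and 0.32 in their deviations. Ctrl 1, 3 and 4 correlated best with their own number and Ctrl 2 with cKO 1. The main fit did not take the numbers as pairs, and whether they mark something shared was not tested. Usp2, Slc5a1, Krt18, Mrc1 and Olfm4 did not pass under the block. Depth limits Ciart and Dbp most, with as few as 16 and 15 reads.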
